A study of Mus musculus with 6 samples.

Results

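The genes described here are those of the NF-kB system: the transcription factor subunits Nfkb1, Nfkb2, Rel, Rela and Relb, the inhibitors Nfkbia and Nfkbie, the IKK kinases Ikbkb and Chuk, and the feedback regulator Tnfaip3. They were taken by name, and of these 10 genes 8 had a probe set that carried their symbol alone, out of 22180 genes measured in all. Nfkb1 and Chuk had none in the probe table used here and were not analysed here. The expression values came from 168FARN, a mouse breast cancer cell line that serves as an allograft model and is compared with the triple-negative subtype. The first group was 3 samples of RKIP knockdown cells, which stably expressed a short hairpin RNA against RKIP from the vector pSUPER.retro-puro. The second was 3 samples of control knockdown cells, which carried the same vector with a hairpin against firefly luciferase. Both groups grew in fetal and newborn calf serum with no further treatment named. Whether the knockdown cells were pools or single clones, and which hairpin sequence they carried, is not stated in the sources used here, so that an effect of RKIP loss and one particular to that line or hairpin cannot be told apart. A single Affymetrix Mouse Gene 2.0 ST array was run per sample, and all levels given here are log2 intensities after RMA, the authors' normalization.

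NF-kB is a family of dimeric transcription factors that share the Rel homology region. In resting cells most dimers are held in the cytoplasm by inhibitors of the IkB family. Signals from receptors of TNF, interleukin 1 and microbial products activate the IKK complex, which phosphorylates IkB so that it is ubiquitinated and degraded, and the released dimers enter the nucleus. In the alternative pathway the kinase NIK activates IKK alpha, and the p100 precursor made by Nfkb2 is processed to p52, the partner of RelB. Several genes of the system, among them Nfkbia, Nfkb2, Rel and Tnfaip3, are themselves NF-kB targets, which makes their transcript levels part of the feedback of the pathway. RKIP, first described as an inhibitor of Raf-1, has also been described to bind NIK, TAK1 and the IKK kinases and to restrain NF-kB activation. The comparison of RKIP knockdown with control knockdown asks here whether the transcripts of these genes differed between cells with the hairpin against RKIP and control cells. Activity of NF-kB, which is set largely by protein degradation and location, was not measured.

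RefSeq promoter windows (250 bases before to 50 after a start, build GRCm38.p6) were at hand for 7 of the 10 genes, in 10 windows, and Nfkb1, Relb and Ikbkb had no entry. The kappa B consensus, searched by its usual letters on both strands, matched in 7 of these 10 windows, against 4.51% of all 32851 windows. By gene it matched in 5 of the 7, against 5.14% of all 27025 genes with a window. A stretch that also reads as the consensus on its opposite strand counted for each strand. The stretches below are those before the start that hold the matches, 5′ to 3′ on the strand of the gene, with every base of a match in capitals. They are shown because they are the letters through which NF-kB dimers are known to act on promoters. No binding was measured here, and a match is a description and not a site.
Rel, chr11:23771036-23771076, minus strand: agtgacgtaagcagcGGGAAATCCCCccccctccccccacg
Nfkb2, first start, chr19:46304683-46304736, plus strand: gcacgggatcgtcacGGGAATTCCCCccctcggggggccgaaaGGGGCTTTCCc
Nfkbia, chr12:55492652-55492691, minus strand: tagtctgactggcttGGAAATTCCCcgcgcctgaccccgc
Nfkbie, chr17:45555579-45555618, plus strand: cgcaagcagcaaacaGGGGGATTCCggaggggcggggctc
Tnfaip3, farther match, chr10:19015511-19015550, minus strand: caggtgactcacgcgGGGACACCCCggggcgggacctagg
Tnfaip3, nearer match, chr10:19015411-19015437, minus strand: actggaatttccatcGGAAATCCCCct

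The first base of the leftmost match lay 92 bases before the start in Rel, 39 in Nfkb2, 29 in Nfkbia and 106 in Nfkbie, and the 2 matches of Tnfaip3 lay 125 and 12 bases before it. In Rel 3 matches overlapped in 1 stretch, since both strands fit. The windows of 2 further starts of Nfkb2 held matches too, and the second window of Tnfaip3 held none. Those 2 windows of Nfkb2 overlap, and the only match of the later one is also counted in the other. Rela and Chuk had no match to these letters in their windows. With the looser shape of GGG and CC separated by any 5 bases, 50.8% of all windows matched, and all 10 windows of these genes did.

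Before the results, the arrays and the cells were examined. Array medians over genes were 5.73 to 5.76 in the RKIP knockdown and 5.77 in the control knockdown. Pebp1, which encodes RKIP, had levels of 7.14, 6.91 and 6.60 in the RKIP knockdown and 7.72, 7.70 and 7.72 in the control knockdown, a remainder of 56.3%. The groups did not overlap, but the difference did not pass at an adjusted p under 0.05 (limma adjusted p = 0.0996, unadjusted p = 0.00043). The second, dimmer probe set of Pebp1 averaged 5.91 in the RKIP knockdown and 5.74 in the control knockdown. Olfactory receptor genes, 1105 in number, set the background, 5.33 at their 95th percentile, and all 8 NF-kB genes lay above it, as did 12724 of the 22180 genes. Of the epithelial markers Krt8 averaged 10.3 in the RKIP knockdown and 10.4 in the control knockdown, whereas Epcam (4.80 and 4.60) and Cldn7 (4.48 and 4.57) lay below background. The mesenchymal gene Vim stood at 13.4 and 13.5, and 7 of 11 mesenchymal markers lay above background. Of other cell types 4 of 10 myeloid, 2 of 8 lymphocyte and 1 of 6 endothelial markers lay above background, and the pan-leukocyte gene Ptprc, at 3.40 in the RKIP knockdown and 3.61 in the control knockdown, did not. The summed intensity of the lymphocyte markers lay between 249.7 and 264 in the RKIP knockdown and between 211 and 233 in the control knockdown, without overlap. Of these markers Cd3g, a subunit of the T cell receptor complex, rose (5.81 in the RKIP knockdown, 4.99 in the control knockdown, limma adjusted p = 0.0381), and Cd79a, a subunit of the B cell receptor, averaged 6.01 in the RKIP knockdown and 5.63 in the control knockdown (limma adjusted p = 0.131), while Cd3e and Cd3d lay below background. The sums of the epithelial markers, of which 8 of 10 lay above background, came close between the groups but did not overlap. They were between 1629 and 1741 in the RKIP knockdown and between 1744 and 1798 in the control knockdown. The sums of the myeloid markers (502 to 551 in the RKIP knockdown, 518 to 548 in the control knockdown), the endothelial markers (183 to 190.2 and 184.5 to 200.1) and the mesenchymal markers (28240 to 29200 and 27800 to 28670) overlapped between the groups. Such sums rest mostly on the brightest genes, in the mesenchymal list Vim and Fn1 and in the epithelial list Krt8. Taken by gene, 4 of 11 mesenchymal markers lay wholly higher in the RKIP knockdown and 2 wholly lower. Of 10 epithelial markers 0 lay wholly higher and 1 wholly lower. The latter was Krt18 (5.79 in the RKIP knockdown, 6.14 in the control knockdown, limma adjusted p = 0.38). Of 10 myeloid markers 0 lay wholly higher and 3 wholly lower, gaps found in 8.67% of all genes in each direction. Col1a1 changed most (log2 change 0.69, limma adjusted p = 0.122), and no mesenchymal, epithelial or myeloid marker passed. The part of these markers in the results was not tested. Fewer cells that express a gene and less of its RNA per cell cannot be told apart in bulk RNA.

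None of the 8 measured NF-kB genes passed the test between RKIP knockdown and control knockdown. The test was limma over all 22180 genes with Benjamini-Hochberg adjustment, at an adjusted p under 0.05, and it called 0.203% of all genes as higher and 0.0496% as lower, so that a list of this size would hold no call at the background rate either. At an unadjusted p under 0.05, 1 of the 8 genes, Rel, was higher and 0 were lower, against 5.01% of all genes higher and 5.09% lower. In Rel the 3 knockdown arrays lay wholly above and in Rela wholly below the 3 control arrays, gaps that 8.67% of all genes showed upward and 8.67% downward. The log2 changes of the 8 genes ran from −0.11 for Rela to 0.30 for Rel, with 5 above 0 and 3 below, and their median was 0.012 against −0.0058 for all genes. The median size of the change, without its sign, was 0.048 in the 8 genes and 0.082 in all genes. Across the 8 genes the 95% intervals of limma, each for its gene alone, stayed between −0.38 and 0.46 on the log2 scale.

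**Figure D1:**
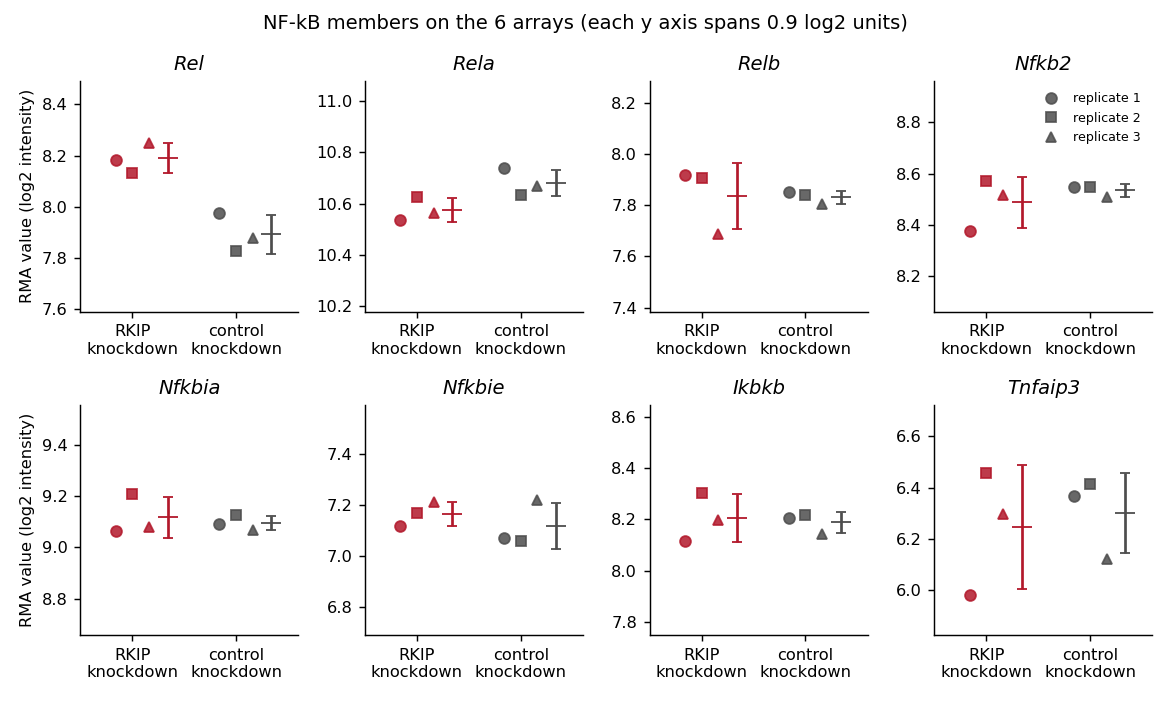
Level of each of the 8 measured NF-kB genes (log2 intensity after RMA, each axis spanning the same distance) on the 3 RKIP knockdown arrays (red) and the 3 control knockdown arrays (grey), with the mean and SD of each group beside the points. Rel is the gene in which the groups stand clearly apart, Rela shows groups that almost touch, and in the other 6 genes the groups overlap.

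Among the subunits, Rel differed most. Rel encodes c-Rel, a subunit with a transactivation domain that is best known from lymphocytes, where it serves proliferation and cytokine genes. Its level was 8.18, 8.13 and 8.25 on the RKIP knockdown arrays and 7.97, 7.83 and 7.88 on the control knockdown arrays. All 3 knockdown arrays were above all 3 control arrays, and the nearest pair lay 0.16 apart. The mean of the RKIP knockdown was 8.19 ± 0.06 and that of the control knockdown 7.89 ± 0.08 (SD, n = 3 arrays each), which is 1.23-fold with a 95% interval of 1.10 to 1.37. The log2 change of 0.30 had a standard error (SE) of 0.07 and did not pass after adjustment (limma adjusted p = 0.227, unadjusted p = 0.0034). Changes of this size or larger, in either direction, occurred in 4.91% of all genes. With any 1 array left out the log2 change was 0.26 to 0.34 (adjusted p = 0.367 to 0.463). The call depended on the variance model, since limma with a variance trend and robust fitting gave an adjusted p of 0.0251 at the same log2 change, in a fit that called 307 genes higher and 213 lower.

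Rela encodes p65, the main activating subunit of the canonical dimer and the target of most IkB alpha in the cell. Its level was 10.54, 10.63 and 10.56 in the RKIP knockdown and 10.74, 10.64 and 10.67 in the control knockdown. The knockdown arrays were all lower, but the highest of them and the lowest control array were only 0.0082 apart, so that the gap rests on a difference far smaller than the spread within either group. The mean was 10.58 ± 0.05 in the RKIP knockdown and 10.68 ± 0.05 in the control knockdown (SD, n = 3 arrays each). The log2 change of −0.11 (SE 0.06, 95% interval −0.25 to 0.04) did not pass (limma adjusted p = 0.611). Rel and Rela thus had changes of opposite sign. Within each array, the difference of Rel minus Rela was shifted by 0.40 on the log2 scale in the RKIP knockdown relative to the control knockdown, a shift that does not depend on a common scaling of an array. The pair was chosen after its values were seen, and the shift is given without a test.

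Relb and Nfkb2 encode the subunits of the alternative pathway, RelB and the p100 precursor of p52. Relb had levels of 7.92, 7.90 and 7.69 in the RKIP knockdown and 7.85, 7.84 and 7.80 in the control knockdown. Replicate 3 of the RKIP knockdown was the lowest of the 6 arrays and the other 2 knockdown arrays the highest, so that the control values lay inside the knockdown range. The log2 change of Relb was 0.0053 (SE 0.08, limma adjusted p = 0.988), with a 95% interval of 0.88-fold to 1.14-fold, and its sign turned under a second quantile normalization and without any 1 of 3 arrays. Nfkb2, whose first promoter window held 4 kappa B matches, had levels of 8.38, 8.57 and 8.52 in the RKIP knockdown and 8.55, 8.55 and 8.51 in the control knockdown. Replicate 1 of the RKIP knockdown was the lowest array and replicate 2 the highest, and the groups overlapped. The log2 change of Nfkb2 was −0.047 (SE 0.07, limma adjusted p = 0.861), with a 95% interval of 0.86-fold to 1.09-fold, and without replicate 1 of the RKIP knockdown it was 0.0085.

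The inhibitors showed little difference. Nfkbia encodes IkB alpha, the inhibitor that is degraded first on stimulation and made again by NF-kB itself. Its level was 9.06, 9.21 and 9.08 in the RKIP knockdown and 9.09, 9.13 and 9.07 in the control knockdown, with the control arrays between the highest and lowest knockdown arrays. The means were 9.12 ± 0.08 in the RKIP knockdown and 9.10 ± 0.03 in the control knockdown (SD, n = 3 arrays each), and the log2 change of 0.021 (SE 0.07) gave an adjusted p of 0.94 from limma. Its 95% interval reached from 0.91-fold to 1.13-fold, and without replicate 2 of the RKIP knockdown the log2 change was −0.025. Nfkbie encodes IkB epsilon, which responds more slowly and binds mainly dimers of c-Rel and p65. Nfkbie had levels of 7.12, 7.17 and 7.21 in the RKIP knockdown and 7.07, 7.06 and 7.22 in the control knockdown. The first 2 control arrays were below all knockdown arrays, while the third was the highest of the 6. The log2 change was 0.049 (SE 0.07, 95% interval 0.92-fold to 1.16-fold, limma adjusted p = 0.853).

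Ikbkb, the kinase IKK beta that phosphorylates IkB alpha in the canonical pathway, had levels of 8.12, 8.30 and 8.20 in the RKIP knockdown and 8.21, 8.22 and 8.14 in the control knockdown. The knockdown arrays held both the highest and the lowest value. The log2 change was 0.018 (SE 0.07, 95% interval 0.90-fold to 1.14-fold, limma adjusted p = 0.953), and it turned in sign in 3 of 15 alternative analyses, to −0.031 at the lowest. Tnfaip3 encodes A20, a ubiquitin-editing enzyme that is induced by NF-kB and shuts off signaling upstream of IKK. Its level was 5.98, 6.46 and 6.30 in the RKIP knockdown and 6.37, 6.42 and 6.12 in the control knockdown. The groups overlapped, and both held a low array, replicate 1 of the RKIP knockdown and replicate 3 of the control knockdown. Tnfaip3 was the dimmest and the least precise of the 8 genes, with means of 6.25 ± 0.24 in the RKIP knockdown and 6.30 ± 0.16 in the control knockdown (SD, n = 3 arrays each). The log2 change of −0.055 (SE 0.14, limma adjusted p = 0.923) had a 95% interval of 0.77-fold to 1.21-fold, and it ran from −0.16 to 0.077 when single arrays were left out.

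**Figure D2:**
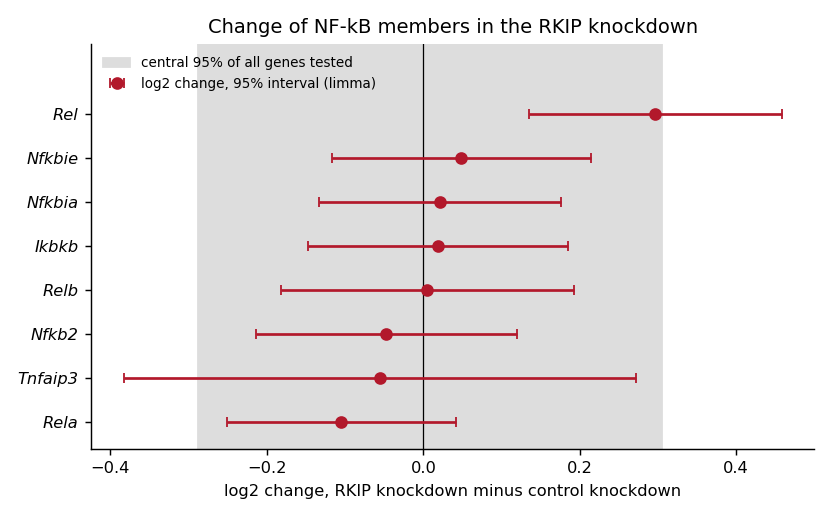
Log2 change of the 8 NF-kB genes, RKIP knockdown minus control knockdown, each with its 95% interval from limma, over a grey band that holds the central 95% of the changes of all genes (−0.29 to 0.31). The interval of Rel lies above 0, those of the other 7 genes include 0, and all 8 points fall inside the band.

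The spread between replicates differed among the genes. The residual SD was 0.049 for Rela and 0.204 for Tnfaip3, which placed them at the 12.0 and 83.9 percentiles of all genes, and the median over the 8 genes was 0.072 against 0.112 over all genes. Within the RKIP knockdown, replicate 1 held the lowest value of 6 of the 8 genes and replicate 2 the highest of 5. In the control knockdown replicate 3 held the lowest value of 5 of the 8 and replicate 2 the highest of 4. Rel, Relb and Nfkbie did not follow this order within the RKIP knockdown. Rel was highest in replicate 3 and lowest in replicate 2, Relb highest in replicate 1 and lowest in replicate 3, and Nfkbie highest in replicate 3. How often other genes follow the order was not tested.

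Genes around these 8 in the pathway were followed through 7 lists, in which the lists were read by their counts and medians and not tested as sets. The remaining IkB proteins and IKK-family subunits had 7 of 7 genes measured, none of which passed, with a median log2 change of −0.043 against −0.0058 in all genes. Their changes ran from −0.20 for Nfkbid, an atypical nuclear IkB with both means below background, to 0.21 for Nfkbiz, the nuclear IkB zeta (adjusted p = 0.697 and 0.493 from limma). Nfkbiz had levels of 7.77, 7.75 and 7.93 in the RKIP knockdown and 7.55, 7.75 and 7.53 in the control knockdown, so that 1 control array reached the knockdown range. Ikbkg, the regulatory subunit NEMO of the IKK complex, had a log2 change of −0.13 (limma adjusted p = 0.623). These 3 genes were named after their values were seen. In the ubiquitin ligase that marks phosphorylated IkB, none of 7 measured genes passed and the changes lay between −0.067 and 0.068.

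Upstream of IKK, 1 of 22 measured genes of signaling from TNF and interleukin 1 receptors rose and none fell, where 0.203% of all genes rose and 0.0496% fell (median log2 change of the list 0.017). The gene was Il1r1, the signaling receptor of interleukin 1, with levels of 7.82, 7.92 and 8.01 in the RKIP knockdown and 7.10, 6.99 and 7.14 in the control knockdown (log2 change 0.84, SE 0.08, limma adjusted p = 0.0236). The lowest knockdown array was well above the highest control array. Irak2 and Myd88, which act on the same route, had groups without overlap and did not pass. Irak2, a kinase downstream of that receptor, had a log2 change of 0.22 (SE 0.06, limma adjusted p = 0.33). Myd88, the adaptor that the receptor recruits, had one of −0.12 (SE 0.06, limma adjusted p = 0.532). Over the 22 genes, 4 lay wholly higher in the RKIP knockdown and 2 wholly lower, gaps found in 8.67% of all genes in each direction.

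In the list of the alternative pathway none of 11 measured genes passed, and 8 of the 11 lay above background. Changes above 0 were found in 2 of the 11 and in 48.1% of all genes. The median log2 change was −0.097 against −0.0058 in all genes. Map3k14, the kinase NIK, had levels of 7.002, 6.82 and 6.89 in the RKIP knockdown and 6.67, 6.74 and 6.59 in the control knockdown (log2 change 0.24, SE 0.07, limma adjusted p = 0.379). Tnfrsf12a, the receptor of TWEAK, had levels of 10.15, 10.12 and 10.09 in the RKIP knockdown and 10.62, 10.37 and 10.36 in the control knockdown (log2 change −0.33, SE 0.08, limma adjusted p = 0.286). Both genes had groups without overlap, in opposite directions, and neither difference passed. In the whole list 1 gene lay wholly higher in the RKIP knockdown and 3 wholly lower, gaps found in 8.67% of all genes in each direction. Of those 3, Cd40 (5.43 in the RKIP knockdown, 5.61 in the control knockdown) and Tnfsf13b (5.28 and 5.52) lay near the background of 5.33. Cd40 and Tnfsf13b were named after their values were seen.

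Of 17 measured brakes on NF-kB none passed, and 15 had changes above 0, as did 48.1% of all genes, with a median log2 change of 0.072 against −0.0058 in all genes. Tnip1, a ubiquitin-binding partner of A20, had levels of 7.77, 7.86 and 7.77 in the RKIP knockdown and 7.58, 7.36 and 7.66 in the control knockdown (log2 change 0.27, SE 0.09, limma adjusted p = 0.4). Nlrc3, an inhibitory NOD-like receptor, had a log2 change of −0.37 (SE 0.14, limma adjusted p = 0.452), and of its knockdown arrays 1 stood near the control values and 2 lower. It averaged 5.52 in the RKIP knockdown and 5.89 in the control knockdown, near the background of 5.33. Among the 17 brakes 5 lay wholly higher in the RKIP knockdown and 1 wholly lower, gaps found in 8.67% of all genes in each direction. Of 13 measured coactivators and modifiers of p65 none passed and the median log2 change was −0.00093. Kpna3, an importin alpha that carries cargo into the nucleus, had a log2 change of 0.17 (SE 0.06, limma adjusted p = 0.411). Among these 13 genes 3 lay wholly higher in the RKIP knockdown and 0 wholly lower, beside the same 8.67% of all genes each way.

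Among 48 measured NF-kB target genes 2 rose and 1 fell, beside 0.203% and 0.0496% of all genes, 45 did not pass, and the median log2 change was 0.026. The 2 that rose were the neighbouring monocyte chemokine genes Ccl2 and Ccl7. Ccl2 had levels of 10.41, 10.13 and 10.29 in the RKIP knockdown and 9.47, 9.36 and 9.47 in the control knockdown (log2 change 0.84, SE 0.09, limma adjusted p = 0.028). Ccl7 had levels of 10.02, 10.04 and 10.24 in the RKIP knockdown and 9.19, 9.08 and 9.09 in the control knockdown (log2 change 0.98, SE 0.08, limma adjusted p = 0.0173). Ier3, an early response gene that modulates cell survival, fell, with levels of 8.59, 8.65 and 8.59 in the RKIP knockdown and 9.27, 9.29 and 9.29 in the control knockdown (log2 change −0.67, SE 0.06, limma adjusted p = 0.0173). In all 3 genes the groups lay far apart, and their directions differed within 1 list. These 3 genes and Il1r1 were already known from the comparison of all genes, so that their calls are no independent evidence about the pathway.

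Beyond these, groups without overlap were found for Plau, the urokinase gene (log2 change 0.50, limma adjusted p = 0.256), Vegfc, a lymphangiogenic growth factor (0.49, adjusted p = 0.128), and Cxcl5, a neutrophil chemokine (0.47, adjusted p = 0.11). In the other direction they were found for Mmp9, a gelatinase (−0.32, adjusted p = 0.377), Slc39a14, a zinc transporter (−0.22, adjusted p = 0.274), and Bcl2l1, which encodes the survival protein Bcl-xL (−0.19, adjusted p = 0.394). Mmp9 averaged 5.52 in the RKIP knockdown and 5.83 in the control knockdown, near the background of 5.33, and 39 of the 48 target genes lay above background. In all, 11 of the 48 genes had knockdown arrays wholly above and 6 wholly below the control arrays, gaps found in 8.67% of all genes in each direction. The 4 genes that passed in these lists stand outside the 8 NF-kB genes, and whether they differ from those 8 was not tested. None of the 4 passed in any fit that left out 1 array. Those fits called only 0 to 4 of all genes as higher and 0 as lower, so almost no gene of any kind passed in them.

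**Figure D3:**
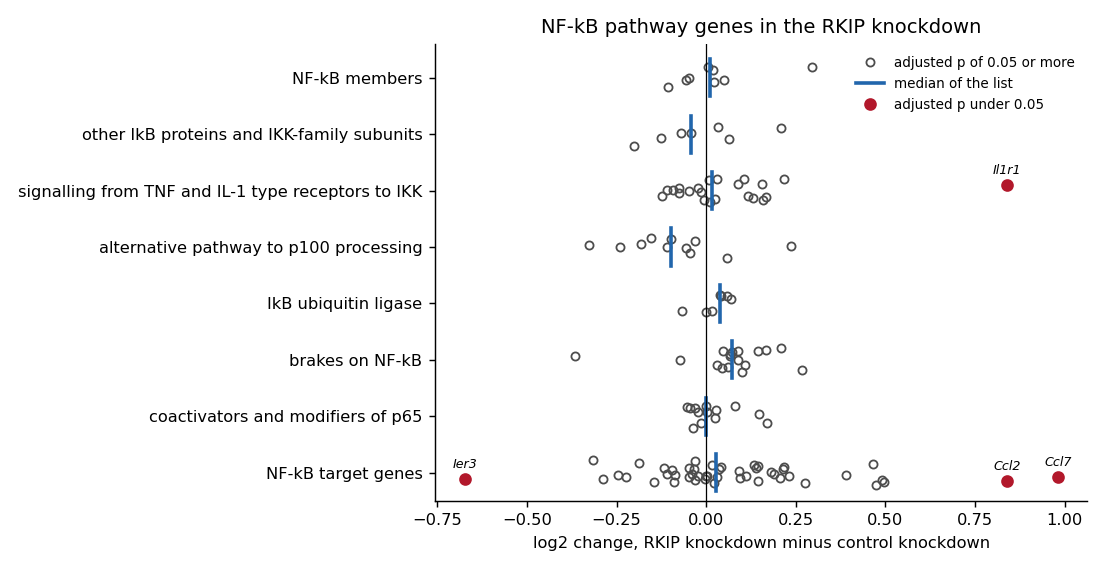
Log2 change, RKIP knockdown minus control knockdown, of the 8 NF-kB genes and of each gene in the 7 pathway lists, with the median of each list as a blue bar and genes at an adjusted p under 0.05 filled in red. Il1r1, Ccl2 and Ccl7 stand to the right and Ier3 to the left, and all 8 NF-kB genes are open circles between −0.11 and 0.30.

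**Figure D4:**
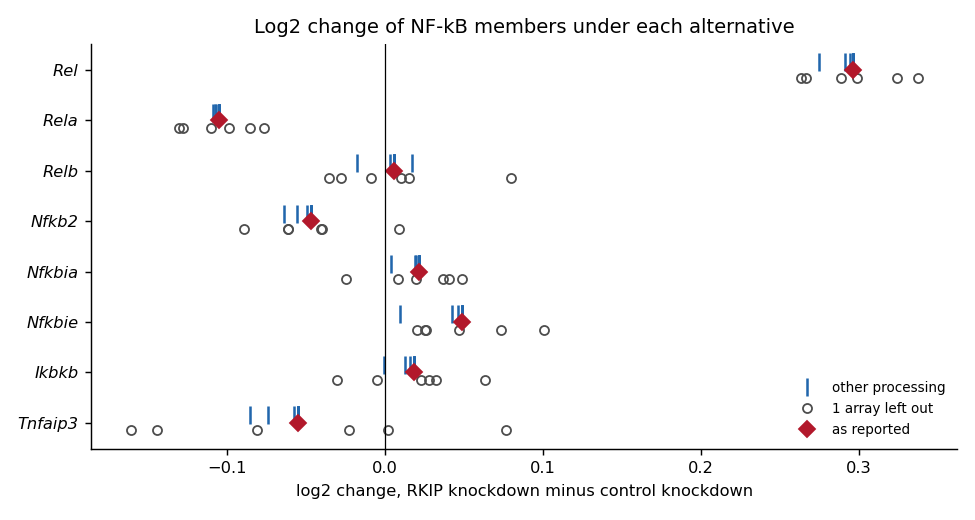
Log2 change of each of the 8 NF-kB genes as reported (red diamond), under each other way of processing (blue ticks) and with single arrays left out (open circles). Rel stays between 0.26 and 0.34, Rela and Nfkbie keep their sign, and the other 5 genes cross 0 in at least 1 analysis.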

How the data were processed

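RNA of 3 RKIP knockdown and 3 control knockdown samples was measured on 6 arrays. The authors deposited their values as log2 intensities, and the labels name RMA and the oligo package, whose versions are not given in the sources used here. RMA brings arrays to a common distribution, so a change shared by most transcripts would not be seen. Of 41345 probe sets 23521 carried exactly 1 gene symbol, 1820 several and 16004 none in the probe table used here. For each of 22180 genes the brightest probe set by its mean over the 6 arrays stood for the gene, and no signal filter was set. The 8 NF-kB genes measured had 1 probe set each.

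Groups were compared with limma 3.58.1 under R 4.3.3 (functions lmFit and eBayes, Benjamini-Hochberg adjustment over all genes, threshold 0.05). A log2 change is the RKIP knockdown mean minus the control knockdown mean. The study's methods name independent experiments, and p-values measure the spread between these samples. The number of arrays limits the precision. The fit was tested on simulated data. Alternatives were 2 scalings, leaving out the dimmest 33.3% of genes, averaging the probe sets of each gene, testing every probe set as a feature, 2 variance models, a block for the replicate number, and analysis of variance (also at the 1.5-fold change and p under 0.01 of the study's methods), a threshold of 0.1 and each array left out.

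The genes and lists were chosen with earlier results of these data known. Beside the 8 genes, the text names genes of the pathway lists past the test, the largest rise and fall in each such list (up to 3 each way among targets) with groups that do not overlap, marker genes as examples of their lists, and others marked as chosen later. Of 135 list genes 10 were not measured. Promoter sequences are those of RefSeq.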

Additional observations from a re-analysis of the deposited data

How the results depend on the processing

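None of the 8 NF-kB genes changed its call under any alternative except Rel, which passed with a variance trend and robust fitting (log2 change 0.30, adjusted p = 0.0251, so that 1 member was called as higher) and had an adjusted p of 0.0896 to 0.463 under the other 14. The direction of Rel, Rela and Nfkbie held in all 15. The log2 change of Nfkb2 was 0.0085 without replicate 1 of the RKIP knockdown, and without single arrays it lay between −0.089 and 0.0085. That of Relb was −0.018 after a second quantile normalization and −0.036 to 0.080 without single arrays. That of Nfkbia was −0.025 to 0.049 without single arrays. That of Ikbkb was −0.0008 after the second quantile normalization and −0.031 to 0.063 without single arrays. That of Tnfaip3 was −0.16 to 0.077 without single arrays.

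Over all genes, 45 higher and 11 lower calls became 116 and 40 without the genes of lowest signal, 2 and 0 with all probe sets as features (3253 at an unadjusted p under 0.05), 307 and 213 with a variance trend and robust fitting together, 4 and 3 by analysis of variance, and 76 and 22 at a threshold of 0.1. Without single arrays they were 0 to 4 higher and 0 lower, with 1802 to 2140 genes at an unadjusted p under 0.05 by limma. With the replicate number as a block limma made 0 calls in either direction (2292 genes at an unadjusted p under 0.05) and Rel had an adjusted p of 0.406. The same-numbered arrays of the 2 groups correlated at −0.006, 0.067 and 0.099 in their deviations from the group means. Not every array correlated best with its own number, and the main fit did not take the numbers as pairs. The study's methods do not say which arrays shared an experiment, and correlations this weak cannot settle whether the arrays were paired. Of the 7 lists, the target genes had 4 higher without the genes of lowest signal, 7 higher with the trend and robust fitting, and 0 higher by analysis of variance. Target genes and the TNF and interleukin 1 signaling list had 0 calls with all probe sets as features, with the block and without any 1 array, and the signaling list had 0 by analysis of variance. With the trend and robust fitting 1 gene of the alternative pathway was lower and 1 coactivator higher. The share of promoters with a match was 50.8% with the looser shape. The cause of these shifts was not tested.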
